A study of Mus musculus with 10 samples.

Results

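Transcript levels of 35 genes of the tricarboxylic acid (TCA) cycle, of glutamine and aspartate metabolism and of the mitochondrial carriers that connect them were examined in murine orthotopic pancreatic tumors, comparing hosts given dextrose water with hosts given regular water. The genes were chosen by name, as TCA enzymes other than complex II, enzymes of anaplerosis (the refilling of the cycle), glutamine and aspartate enzymes, aminotransferases and carriers. All 35 were found among the 55359 genes of the deposited table, by Ensembl identifier without its version. According to the source label and the methods the tumors came from KPC K8484 cells, although the sample titles call them PDX. These cells are a single murine pancreatic cancer line that carried luciferase. They were injected into the pancreas of immunocompetent C57BL/6 mice (C57BL/6 J in the methods) of 10 weeks of age. The methods state that both sexes were used in the orthotopic experiments, without giving the sex of the host of each sequenced tumor. Reads of Y-linked genes in the tumors are given below. In the CTRL group, 5 normoglycemic hosts drank regular water, and in the D30 group 5 hyperglycemic hosts drank water with 30% dextrose, and 5 independent tumors were sequenced per group. The figure legend of the study gives 14 days for the tumors of the glucose and metabolite panels. It names no separate time for the transcriptome panels. Both groups carried the same cells, which represent 1 line, and each sample was whole tumor, so that host cells contributed RNA. In such bulk tissue, fewer cells of a type and less RNA per cell cannot be told apart.

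In the TCA cycle, acetyl-CoA from pyruvate or fat is joined to oxaloacetate by citrate synthase, and the citrate formed is oxidized back to oxaloacetate with release of CO2 and reduced cofactors. The cycle is also a source of building blocks: citrate exported by its carrier feeds fatty acid synthesis, and aspartate feeds nucleotide synthesis. What is withdrawn is replaced through pyruvate carboxylation and through glutamine, which is deamidated to glutamate and then converted to 2-oxoglutarate. Pancreatic cancer cells are known to route glutamine-derived aspartate to the cytosol through the paired aminotransferases Got2 and Got1.

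The deposited values are normalized counts, in which reads were divided by 1 factor per tumor. The reads recovered from them numbered 29192261 to 42122304 per tumor. Several tumors stood apart. Over the genes whose mean reached 100 normalized counts, the D30 tumor T4 held the highest or the lowest of the 10 values in 63.1% and the D30 tumor T5 in 36.5%. T4 was the only tumor with reads from the 4 Y-linked genes looked at (841 reads against 0 in every other tumor), and T5 had the fewest genes with a read (20482) and erythroid markers of 171591 summed normalized counts against at most 11210 elsewhere. The cell type markers also moved with the groups. The 6 ductal epithelium markers summed to 209890 to 335472 in CTRL and 341271 to 475520 in D30 tumors, without overlap. The sum was made up mostly of keratins, and Epcam of the same list was lower in D30, at 15.9 to 191 normalized counts in CTRL and 0 to 62.5 in D30 tumors. None of the 6 passed the limma test at an adjusted p under 0.05. The 5 endothelium markers summed to 10081 to 16799 in CTRL and 4115 to 8398 in D30 tumors, again without overlap, with 1 called lower (Cdh5, adjusted p = 0.0117). Cdh5 made up most of this sum, at 7205 to 14529 in CTRL and 2480 to 6142 in D30 tumors. The groups overlapped for Pecam1, Kdr, Tek and Emcn of the same list, and Tek was highest in the D30 tumors T1 (655) and T7 (692). The 6 T cell markers summed to 261 to 527 and to 160 to 255, also without overlap, and the 7 fibroblast markers to 76308 to 135218 and to 26700 to 102388, with overlap. The 9 acinar markers were uneven among tumors, with sums of 61273 in N6 and 28427 in N2 against 173 to 5758 in the others. Limma also called 3 of 6 islet, 2 of 7 hepatocyte and 1 of 7 macrophage markers (Csf1r) as lower in D30. The part of cell composition in the differences below was not tested.

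Among the 35 genes, Ucp2, an inner mitochondrial membrane carrier, was the only one whose level rose in D30 tumors by the test across all genes, and 0 fell. This was 1 gene of 35, where limma called 2.76% of the 24560 genes tested in either direction and 1.4% as higher in D30 (Benjamini-Hochberg adjusted p under 0.05). All 35 passed the filter of a mean normalized count of 1 or more and were tested, Pck1 mostly through the reads of a single tumor. The log2 fold change was above 0 in 22 and below 0 in 13. The median was 0.17 beside -0.06 over all genes tested and -0.02 over those whose mean reached 100 normalized counts. With scaling to the total reads instead of the authors' factors, 13 lay above 0 and 22 below, with a median of -0.06 beside -0.27 over all genes, and 9 turned from above to below 0 (Idh3g, Dlst, Mdh1, Mdh2, Pcx, Gls2, Gpt2, Slc25a11 and Slc25a13). An unadjusted p under 0.05 was found for 4 of the 35 (Ucp2, Gpt, Suclg2 and Glul, each with a fold change above 0), where 17.3% of all genes had one, and the groups did not overlap for 1 (Suclg2), where 6.19% of all genes did not overlap.

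**Figure D1:**
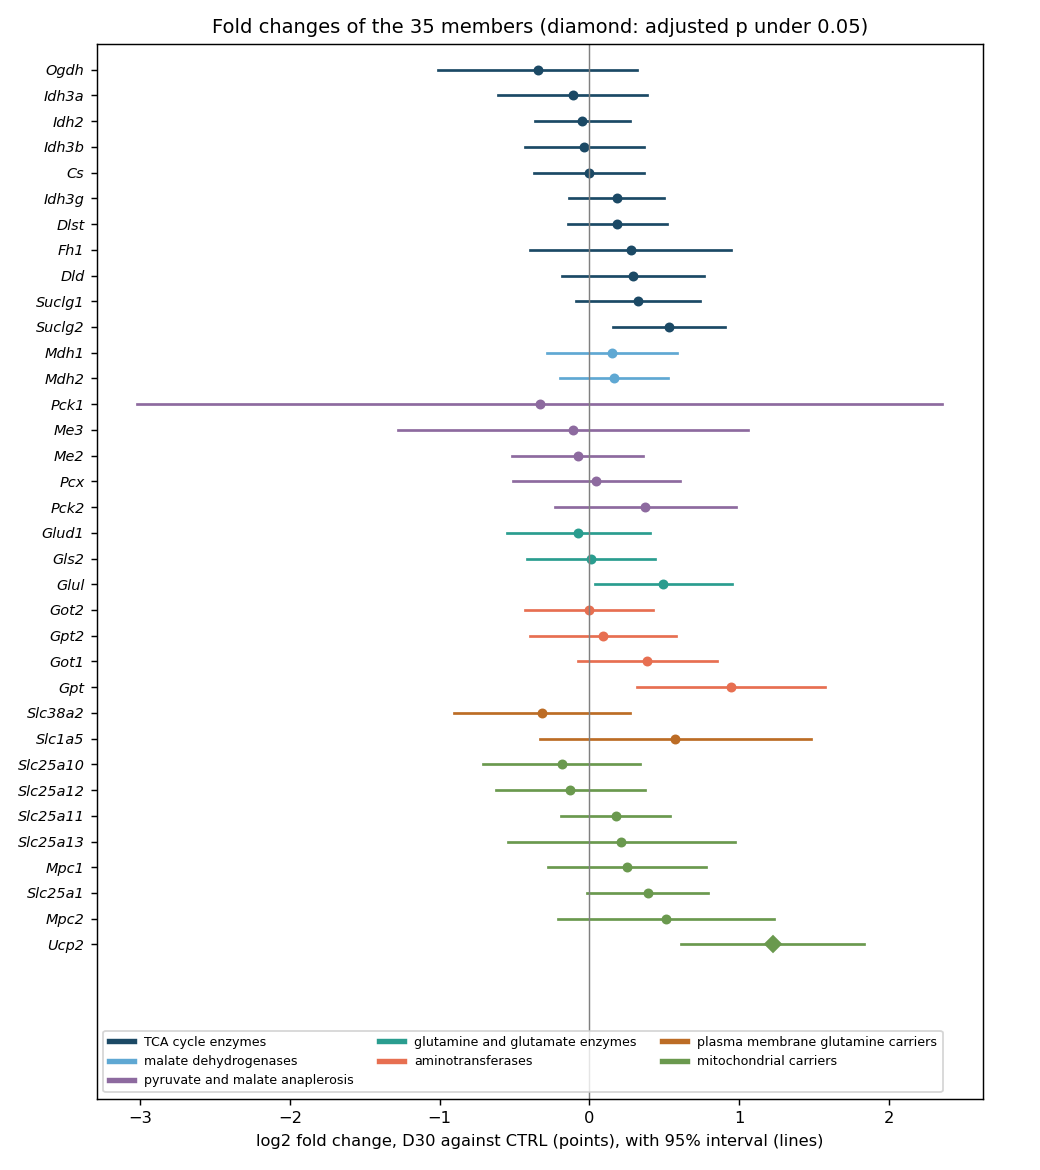
The log2 fold change of each of the 35 genes, D30 against CTRL, is plotted as a point with its 95% interval as a line, from limma with 5 tumors per group, on the log2 scale and coloured by role. Only Ucp2, the diamond at the bottom, had an adjusted p under 0.05, and the interval of Pck1, whose reads came mostly from a single tumor, ran from -3.02 to 2.36.

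The precision differed widely among genes. The 95% interval of the log2 fold change lay within -0.5 and 0.5 for 5 genes. It reached -1 or 1 for Ogdh, Pck1, Me3, Gpt, Slc1a5, Mpc2 and Ucp2. For these genes a 2-fold difference was not excluded with 5 tumors per group. The tumors of the D30 group varied more than those of the CTRL group. The SD of log2 values was larger among D30 tumors for 29 of 35 genes (82.9%), with medians of 0.45 in D30 and 0.24 in CTRL. The same held for 84.4% of all genes tested and for 92.1% of those whose mean reached 100 normalized counts.

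The 11 enzymes of the cycle itself had log2 fold changes between -0.35 and 0.53, with 6 above 0 and 5 below. None was called by limma or edgeR, and DESeq2 called 1 (Suclg2). Citrate synthase (Cs), which opens the cycle, had a fold change of 0.00 on the log2 scale (95% interval -0.37 to 0.37). Idh2, the NADP-dependent mitochondrial isocitrate dehydrogenase, varied little, with 6230 to 7105 normalized counts in CTRL and 5717 to 6840 in D30 tumors and a log2 fold change of -0.05. The subunits of the NAD-dependent isocitrate dehydrogenase, catalytic Idh3a and its partners Idh3b and Idh3g, had log2 fold changes of -0.11, -0.03 and 0.18. Of the 2-oxoglutarate dehydrogenase complex, Dlst and Dld, its succinyltransferase and its dihydrolipoyl dehydrogenase, had log2 fold changes of 0.19 and 0.29, and fumarase (Fh1) had 0.27, with overlapping groups in each.

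Suclg2 encodes the GTP-forming beta subunit of succinate-CoA ligase, the step of the cycle that makes a nucleotide triphosphate directly. It lies on chromosome 6, from 95473009 to 95718800 on the minus strand (GRCm38). Suclg2 measured 5483, 3744, 4611, 4844 and 4732 normalized counts in the CTRL tumors N1, N2, N4, N5 and N6, and 6020, 8339, 7287, 5907 and 6304 in the D30 tumors T1, T2, T4, T5 and T7. Every D30 tumor was thus above every CTRL tumor, with T5 closest to N1. The means were 4683 ± 624 (SD, n = 5) and 6771 ± 1031 (SD, n = 5). On the log2 scale this was a difference of 0.53 (SE 0.173), with an adjusted p of 0.130 in limma and 0.0497 in DESeq2, which called 8.52% of the genes it tested. Suclg1, the shared alpha subunit, had a log2 fold change of 0.32 (95% interval -0.09 to 0.74) and its groups overlapped.

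Ogdh, the subunit that gives the 2-oxoglutarate dehydrogenase complex its substrate specificity, had the lowest log2 fold change of the 35 in limma (in DESeq2 that of Pck1, which rests on N4, was lower). Ogdh measured 2601, 3418, 4244, 3484 and 3425 normalized counts in N1, N2, N4, N5 and N6, and 3868, 3835, 1197, 2103 and 3633 in T1, T2, T4, T5 and T7. T1, T2 and T7 lay within the CTRL range, while T4 and T5 lay below it. Its log2 fold change was -0.35 (SE 0.308, limma adjusted p = 0.614), -0.06 without T4, and 0.15 without T4 and T5.

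The malate dehydrogenases connect the cycle to the malate-aspartate shuttle. Mdh2, the mitochondrial form, measured 12623, 11223, 14081, 9817 and 11026.5 normalized counts in the CTRL tumors in the order above, and 11972, 12609, 14991, 12556 and 13498.5 in the D30 tumors. The groups overlapped, with a log2 fold change of 0.17 (95% interval -0.19 to 0.53), and Mdh1, the cytosolic form, had 0.15.

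Of the 5 genes of pyruvate and malate anaplerosis, none was called by limma, and none of those tested by edgeR or DESeq2. Pcx, pyruvate carboxylase, had a log2 fold change of 0.05 (95% interval -0.51 to 0.60), Pck2, the mitochondrial phosphoenolpyruvate carboxykinase, 0.37 (-0.23 to 0.98), and Me2, a mitochondrial malic enzyme, -0.08 (-0.52 to 0.36). Pck1, the cytosolic phosphoenolpyruvate carboxykinase of liver, kidney and fat, gave 0, 0, 120, 0 and 0 reads in the CTRL tumors and 0, 0, 3, 6 and 0 in the D30 tumors. Nearly all of its reads thus came from N4, which also had the highest adipocyte marker sum, 5764 normalized counts against 2217 to 3061 in the other CTRL and 2266 to 2631 in the D30 tumors. The part of fat tissue in this value was not tested. Without N4 the fitted log2 fold change of Pck1 went from -0.33 to 1.03, and no direction can be read from it. Me3, the other mitochondrial malic enzyme, had 2 to 15 reads per tumor, too few to show a difference.

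The enzymes that make glutamine, open it to glutamate and oxidize glutamate were read as a group of 3. Glul, glutamine synthetase, measured 4881, 3896, 3317, 4196 and 3827 normalized counts in the CTRL tumors and 5668, 5352, 3803, 8415 and 5767 in the D30 tumors. All D30 tumors but T4 lay above the CTRL range, and T5 was by far the highest. The log2 fold change was 0.49 (SE 0.211, limma adjusted p = 0.251), and without T4 it was 0.63 (adjusted p = 0.0416). Without T5, the highest tumor, it was 0.35 (adjusted p = 0.367), and over the 10 fits without 1 tumor the adjusted p was 0.0416 to 0.441. Gls2, one of the glutaminases, had 0.01 (95% interval -0.42 to 0.44), and Glud1, glutamate dehydrogenase, had -0.07 (-0.55 to 0.40).

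Aminotransferases move the amino group of glutamate onto keto acids and yield 2-oxoglutarate. Gpt, the cytosolic alanine aminotransferase (chromosome 15, 76695716 to 76699686, plus strand), measured 1735, 1197, 1804, 1469 and 1957 normalized counts in the CTRL tumors and 2546, 5119, 3199, 1579 and 4359 in the D30 tumors. T5 lay among the CTRL tumors, and the other D30 tumors lay above all of them. The means were 1632 ± 301 (SD, n = 5) and 3360 ± 1410 (SD, n = 5), with a log2 fold change of 0.95 (SE 0.291). The adjusted p was 0.109 in limma, 0.0626 in edgeR and 0.0172 in DESeq2. Over the 10 limma fits without 1 tumor the log2 fold change was 0.77 to 1.19 and the adjusted p 0.0195 to 0.282, and only the fit without T5 called it. Gpt2, the mitochondrial form, had a log2 fold change of 0.09 (95% interval -0.40 to 0.57). The aspartate aminotransferases differed in 1 tumor. Got1, cytosolic, was 4199 to 5333 in CTRL and 4654 to 6717 in T1, T2, T5 and T7, but 10222 in T4, while Got2, mitochondrial, was lowest of all in T4 at 3222. The log2 fold changes were 0.39 for Got1 and 0.00 for Got2, without a call in limma, edgeR or DESeq2.

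The plasma membrane carriers for glutamine split by tumor. Slc1a5, the sodium-dependent exchanger of neutral amino acids also called ASCT2, measured 697, 794, 979, 558 and 951 normalized counts in the CTRL tumors and 1950, 1953, 379, 768 and 1880 in the D30 tumors. T1, T2 and T7 lay far above every CTRL tumor, T5 within the CTRL range, and T4 below it. For Slc1a5 the log2 fold change was 0.57 (SE 0.419, limma adjusted p = 0.522), and it was 0.97 without T4 (adjusted p = 0.0556) and 1.31 without T4 and T5 (adjusted p = 0.000838). Without T1, T2 or T7 it was 0.38 to 0.40, and over the 10 fits without 1 tumor the adjusted p was 0.0556 to 0.728. Slc38a2, the SNAT2 carrier of small neutral amino acids, measured 7470, 8209, 8106, 10018 and 8157 in the CTRL tumors and 12079, 8132, 4158, 4399 and 7473 in the D30 tumors. T4 and T5 were again low and T1 was the highest of all 10. The log2 fold change of Slc38a2 was -0.32 (SE 0.272, limma adjusted p = 0.594) and 0.11 without T4 and T5.

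**Figure D2:**
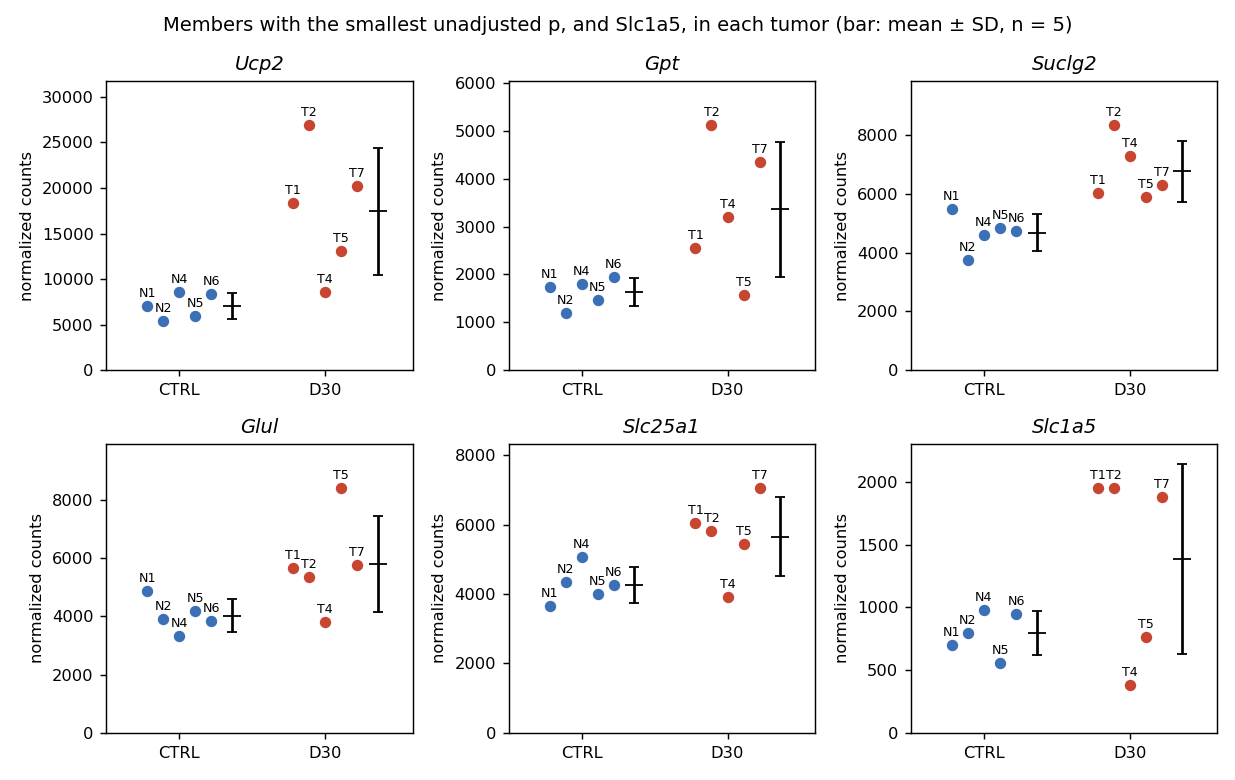
Normalized counts in each tumor are plotted for Ucp2, Gpt, Suclg2, Glul, Slc25a1 and Slc1a5, 5 CTRL tumors on the left and 5 D30 tumors on the right of each panel, with the mean ± SD beside each group. For Suclg2 the lowest D30 tumor (5907) lay above the highest CTRL tumor (5483), for Ucp2, Glul and Slc25a1 only T4 fell into the CTRL range, and for Slc1a5 the D30 tumors split into 3 high and 2 low ones.

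The 8 mitochondrial carriers hold the called gene. Ucp2 belongs to the uncoupling protein family and is known to export metabolites such as malate, oxaloacetate and aspartate from mitochondria in exchange for phosphate. It lies on chromosome 7, from 100493337 to 100502020 on the plus strand. Ucp2 measured 7022, 5427, 8622, 5938 and 8320 normalized counts in N1, N2, N4, N5 and N6, and 18329, 26894, 8596, 13127.5 and 20191 in T1, T2, T4, T5 and T7. D30 tumors other than T4 lay well above the CTRL tumors, and T4 lay just under the highest CTRL tumor. The log2 fold change was 1.22 (SE 0.283, 95% interval 0.61 to 1.83), with an adjusted p of 0.0359 in limma, 0.0263 in edgeR, which called 4.13% of its genes, and 0.000928 in DESeq2. The call did not hold with every tumor left out. Over the 10 fits without 1 tumor the log2 fold change was 1.04 to 1.45 and the adjusted p 0.00180 to 0.120, and only the fits without T4 (0.00180) and without T5 (0.0395) kept the call. Macrophages also express Ucp2, and the 7 macrophage markers summed to 18391 to 30798 normalized counts in CTRL and 9629 to 26593 in D30 tumors, with T4 the highest D30 tumor. Their part in the Ucp2 values was not tested. With scaling to total reads the log2 fold change was 0.999 (adjusted p = 0.112).

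The window before the transcription start of Ucp2, the called gene, and that of Suclg2, whose groups did not overlap, are shown because the comparison turned on these genes. They are the 250 bases before the RefSeq start (GRCm38.p6), and capitals mark a match on either strand to TGACNNNGC, an antioxidant-type motif. The Ucp2 window is chr7:100493108-100493357 on the plus strand, with the match 66 bases before the RefSeq start as the reverse complement of the motif. The RefSeq start of Ucp2 lies inside the gene span given above, which begins at 100493337, so that the last bases of the window fall within that span. The Suclg2 window is chr6:95718847-95719096 on the minus strand, with no match to any motif searched. The RefSeq start of Suclg2 lies upstream of the gene span given above, which reaches 95718800. The last bases of its promoter entry were not found in the annotated transcripts of Suclg2.
Ucp2: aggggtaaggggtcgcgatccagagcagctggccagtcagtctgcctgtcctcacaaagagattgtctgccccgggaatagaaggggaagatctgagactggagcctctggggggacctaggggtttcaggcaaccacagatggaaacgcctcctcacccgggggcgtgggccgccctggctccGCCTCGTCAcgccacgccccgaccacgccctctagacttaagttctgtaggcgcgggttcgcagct
Suclg2: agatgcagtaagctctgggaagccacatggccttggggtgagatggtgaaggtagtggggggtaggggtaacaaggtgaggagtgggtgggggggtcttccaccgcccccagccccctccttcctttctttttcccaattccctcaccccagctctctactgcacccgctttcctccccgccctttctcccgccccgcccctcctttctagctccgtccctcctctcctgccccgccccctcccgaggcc
The promoter table held 30 of the 35 genes (no entry for Gls2, Gpt, Idh3a, Me2 and Slc1a5). TGACNNNGC was found in 6 of these 30 promoters (20.0%: Dlst, Idh3g, Mdh1, Mpc1, Slc38a2 and Ucp2) and in 13.99% of all 27025 promoters of the table, counting both strands and the 50 bases after the start as well. The E box CACGTG was found in 4 (13.3%, against 8.09% of all), the ATF4-type motif TGATGNAA in 3 (10%, against 4.51%), the NRF1 core GCGCATGCG in 1 (3.33%, against 1.95%) and TCAAGGTCA, the type bound by estrogen-related receptors, in 0 (against 0.466%). These promoters had a median GC content of 60.3%, against 52.7% over all promoters. The motifs were searched independently, and a longer motif may overlap another one.

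Among the other carriers, Slc25a1 exports the citrate used for fatty acid synthesis. Slc25a1 measured 3656, 4352, 5066, 3990 and 4250 normalized counts in the CTRL tumors and 6045, 5803, 3910.5, 5450 and 7056 in the D30 tumors. All D30 tumors but T4 lay above the CTRL range. Its log2 fold change was 0.39 (SE 0.187, limma adjusted p = 0.306) and 0.52 without T4 (adjusted p = 0.0489), the only call among the 10 fits without 1 tumor, whose adjusted p ran to 0.480. The mitochondrial pyruvate carrier subunits Mpc1 and Mpc2 had log2 fold changes of 0.25 and 0.51, and 0.06 and 0.17 without T4, the highest tumor for both. The aspartate-glutamate carriers Slc25a12 and Slc25a13 had -0.13 and 0.21, the dicarboxylate carrier Slc25a10 -0.19, and the 2-oxoglutarate carrier Slc25a11 0.17, all with overlapping groups.

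Which genes passed the test depended on T4 and T5. Without T4, limma called 3 of the 35 (Ucp2, Glul and Slc25a1), where it called 6.43% of all genes. Without T5 it called 2 (Ucp2 and Gpt), with 3.54% of all genes called. In fits chosen after the data were seen, without T4 and T5 it called 5 (Ucp2, Gpt, Suclg2, Slc25a1 and Slc1a5), where 9.97% of all genes were called, and without N1 and T4 it called 3 (Ucp2, Suclg2 and Glul), where 6.49% were called. DESeq2 with all tumors called 3 (Ucp2, Gpt and Suclg2). All genes called in any of these fits were higher in D30. As shares of the 35 genes, these counts were 8.57% without T4, 5.71% without T5, 14.3% without T4 and T5, 8.57% without N1 and T4, and 8.57% in DESeq2, each at or a little above the share of all genes in the same fit, and a difference of that size is made by 1 or 2 genes.

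T4 and N1 departed from their groups along the base composition of the transcripts and, less strongly, along their length. T4 lay above the range of the other D30 tumors for 13 of the 35 genes and below it for 12, together 71.4%, where the share over all genes whose mean reached 100 normalized counts was 74.6%. The 13 genes above had a median GC content of 47.7% in the longest principal transcript, and the 12 below had 54.8%. For the 33 genes whose mean reached 100, Spearman's correlation between GC content and the log2 deviation of T4 from the mean of the other D30 tumors was -0.51, and for N1 against the other CTRL tumors it was -0.58. T7 had the opposite sign, at 0.66, and N6 stood at 0.56. Each deviation, here and for length below, was taken from the mean of the other tumors of the group. A strong correlation in T4 or N1 thus moves those of the rest of its group the opposite way, in part by construction. Over 11592 genes the correlations were -0.47 for T4, -0.53 for N1 and 0.48 for T7, and 0.12 (N5) to 0.42 (N2) for the remaining tumors. With transcript length in place of GC content, they were -0.37 for T4, -0.35 for N1, -0.04 for T7 and 0.46 for T1 and N5. For the 33 genes the correlation with length was -0.36 for T4 and -0.20 for N1. The parts of GC content and of length were not separated. These are descriptions across genes of the same libraries, and genes are not independent replicates. Of the 10 genes with a GC content under 48%, 9 were above the other D30 tumors' mean in T4, by a median of 0.69 on the log2 scale, and of the 11 genes with at least 54%, 3 were, with a median of -0.63. These GC bounds were chosen after the data were seen, and the part of base composition or of length in the differences between groups was not tested.

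**Figure D3:**
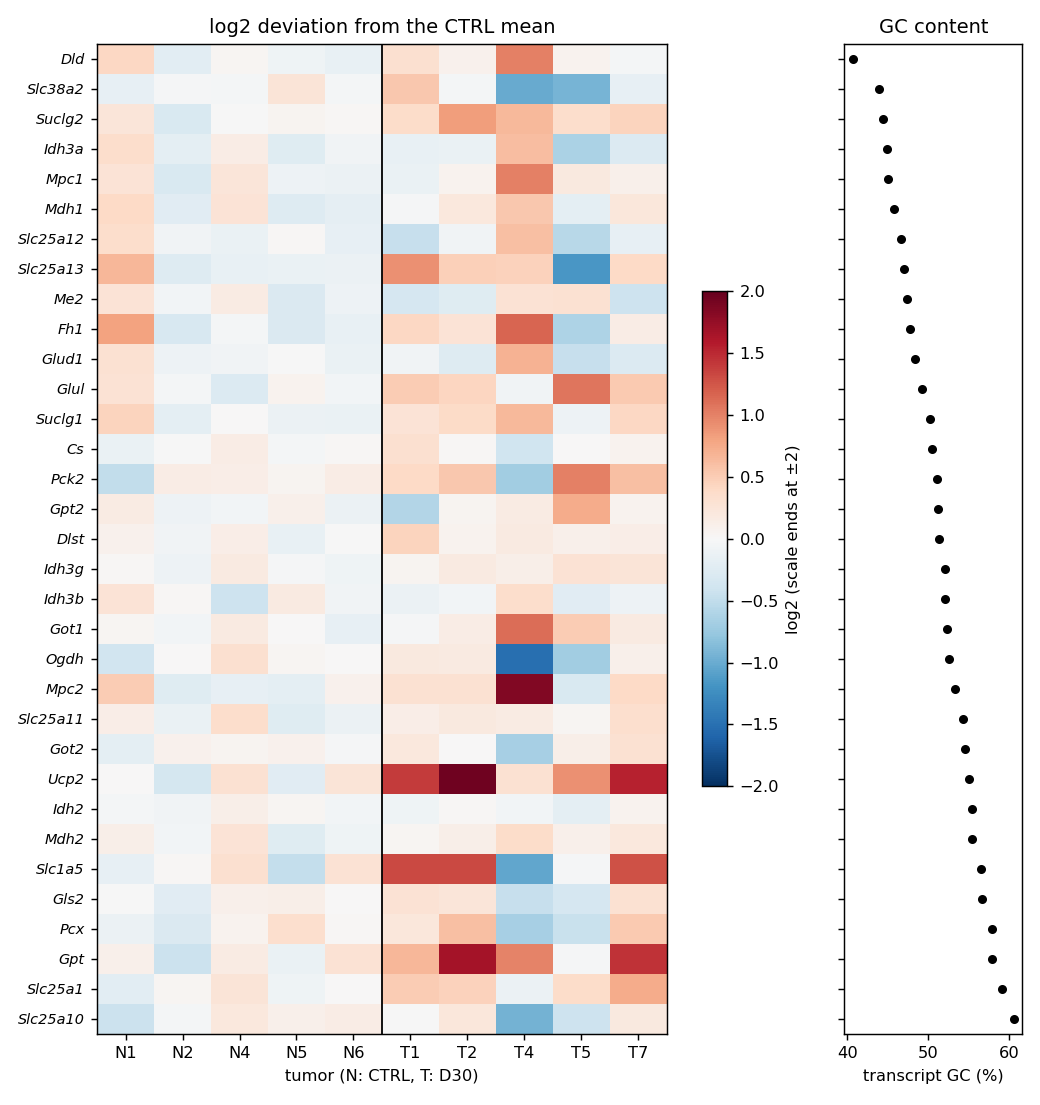
Each row is 1 of the 33 genes whose mean reached 100 normalized counts, ordered from low transcript GC content (top) to high (bottom), with GC content in percent at the right. Colours give the log2 deviation of each tumor from the CTRL mean, on a scale from -2 to 2. The column of T4 is mostly red among low-GC genes and mixed among high-GC genes, such as red for Gpt and Mdh2 and blue for Slc1a5 and Slc25a10. The medians of T4 against the other D30 tumors, 0.69 for low-GC and -0.63 for high-GC genes, are on another reference than these colours.

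Per kilobase of the longest principal transcript, Mdh2 had the highest mean level over the 10 tumors, 8544 normalized counts per kilobase. It was followed by Idh2 (3685), Idh3g (3080), Ucp2 (3071) and Idh3b (3012), which lay close together. In CTRL tumors Ucp2 stood at 1772 per kilobase and in D30 tumors at 4370. The lowest were Me3 (1.61 per kilobase) and Pck1 (4.51), next to Slc25a13 (155) and Slc25a12 (157). The order of the lowest pair turned between groups, since Pck1 stood at 8.24 per kilobase in CTRL, mostly from N4, and at 0.777 in D30 tumors, and Me3 at 1.62 and 1.602. Me3 measured 9.47, 5.06, 3.65, 5.31 and 12.8 normalized counts in the CTRL tumors and 2.06, 4.58, 15.0, 5.72 and 8.52 in the D30 tumors, with the groups fully overlapping.

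**Figure D4:**
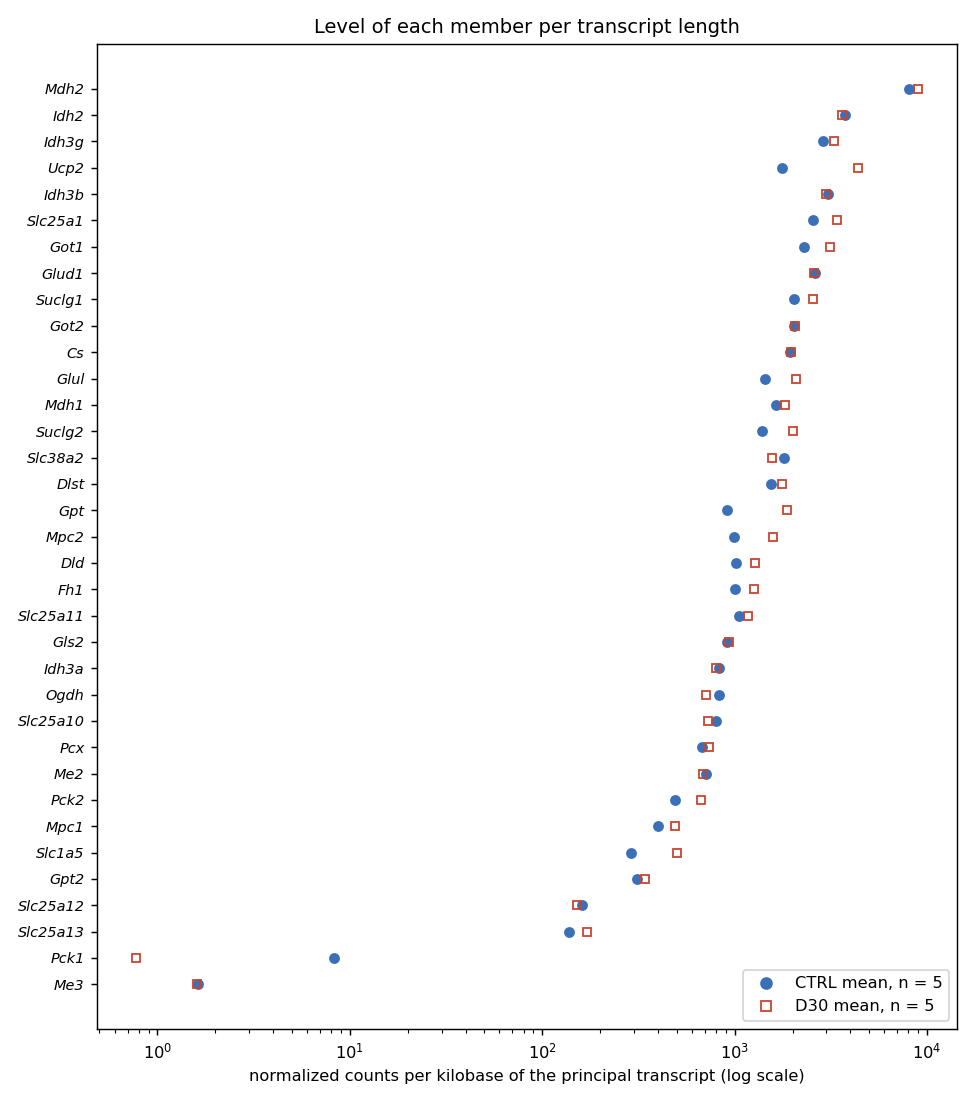
Mean normalized counts per kilobase of the longest principal transcript are plotted on a log axis for each gene, CTRL as filled circles and D30 as open squares, 5 tumors each. Mdh2 is at the top and Me3 and Pck1 are at the bottom, and the symbols of Ucp2 lie far apart (1772 and 4370).

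Ratios of partner genes within a tumor do not depend on how tumors are scaled, and 14 of them were tested by exact permutation (two-sided). With 5 tumors against 5 such a test can give no p below 0.00794, so that after adjustment over 14 ratios at least 3 would have to reach it to pass. None differed between groups at an adjusted p under 0.05. The smallest p values were 0.0635 for Glul over Gls2 (D30 minus CTRL 0.48 on the log2 scale, n = 5 each, exact test) and 0.103 for Gpt over Gpt2 (0.86, exact test), and the smallest adjusted p was 0.583. A single tumor set several ratios apart. In T4, Got1 over Got2 was 1.67 on the log2 scale against -0.34 to 0.28 in the other 9 tumors, Glud1 over Got2 was 2.15 against 0.21 to 1.31, and Ogdh over Dlst was -2.0 against -1.12 to -0.13.

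**Figure D5:**
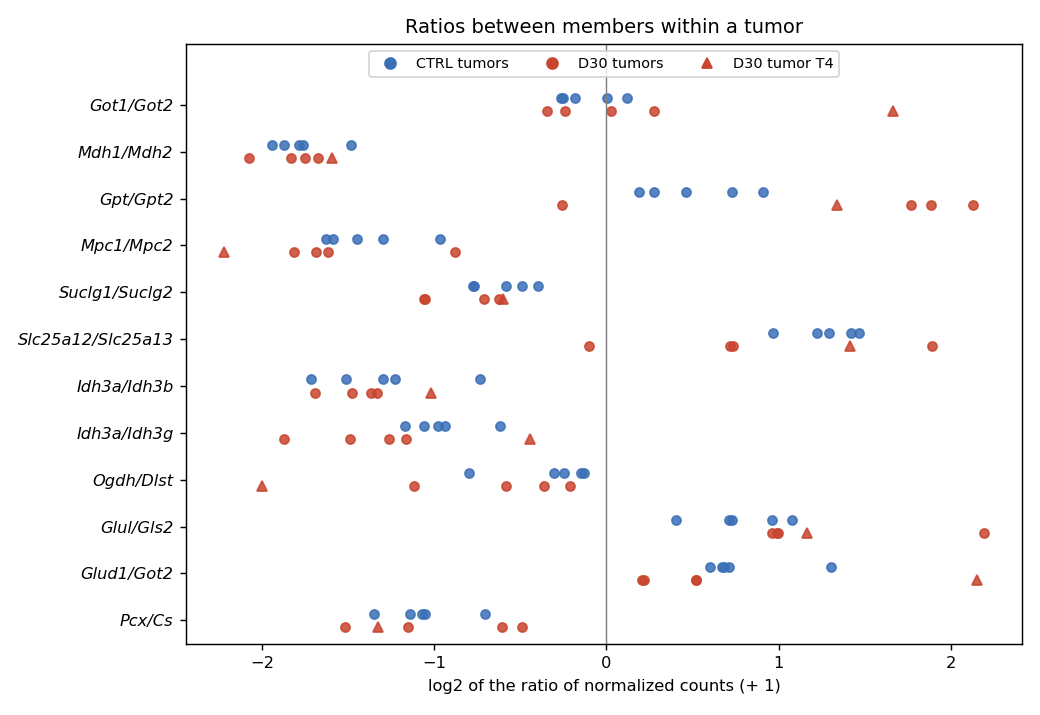
The log2 ratio of normalized counts of gene pairs is plotted for each tumor, CTRL in blue, D30 in red and T4 as a triangle (the ratios with Pck1 and Me3 are left out because of their low counts). The groups overlapped for every pair, and T4 was set apart for Got1/Got2 (1.67), Glud1/Got2 (2.15) and Ogdh/Dlst (-2.0).

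Other genes of the same pathways were listed for comparison under 57 symbols, of which 55 were matched and tested (Mmut had no match by name, and Adss2 is another symbol of Adss, which was tested). Of these, 33 had a log2 fold change above 0 and 22 below, with a median of 0.10. The gene limma called among them was Asns, asparagine synthetase, which transfers the amide nitrogen of glutamine to aspartate. Asns measured 2173, 1736, 2629, 2026 and 2146 normalized counts in the CTRL tumors and 3692, 3223, 3720, 4827 and 3534 in the D30 tumors, without overlap, for a log2 fold change of 0.83 (SE 0.176, limma adjusted p = 0.0243, edgeR 0.0193, DESeq2 0.000751). The next smallest p values belonged to Slc25a27, the neuronal uncoupling protein, and to Sucla2, the ATP-forming beta subunit that pairs with Suclg1. Slc25a27 was at -1.16, with groups that did not overlap and an adjusted p of 0.0619 in limma, 0.0570 in edgeR, 0.00648 in DESeq2, 0.0351 in limma without T4 and 0.0419 without T5. Sucla2 was at 0.86, with an adjusted p of 0.0689 in limma, 0.0395 in edgeR, 0.00755 in DESeq2, 0.00401 in limma without T4 and 0.0635 without T5. DESeq2 also called Abat, GABA transaminase, at -1.23 in limma (adjusted p = 0.132 in limma, 0.0473 in DESeq2), which is named here after its values were seen. An unadjusted p under 0.05 in limma was found for 10 of the 55, close to the 17.3% of all genes.

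Some of these genes overlap others in the genome, and whether reads were counted by strand was not given in the sources used here, although the libraries kept strand. Without strand, the reads of a gene and of a partner on the opposite strand cannot be told apart where they overlap. Idh3b overlaps Nop56, whose mean was 126% of its own, Pcx overlaps Lrfn4 (119%), Slc25a11 overlaps Rnf167 (63.0%) and Gls2 overlaps Spryd4 (17.3%). Ucp2 overlaps Dnajb13, whose mean of 38.5 normalized counts was 0.315% of that of Ucp2. Processed copies of Got2 and Mpc1 were also in the table, with means of 3.67 and 71.5 normalized counts.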

How the data were processed

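RNA from 10 tumors, 5 CTRL and 5 D30, was sequenced in pairs from strand-specific libraries. Per the methods and the submitters' processing notes, the authors trimmed reads with Trim Galore, aligned them with STAR 2.7.0e and used DESeq2, and RSEM is in their list of software. The methods name hg38, the notes name GRCm39, and the table lists mouse identifiers. The annotation and the counting settings were not given in the sources used here. The deposited signal values are normalized counts, and 100% of them gave whole reads (tolerance 0.1 of a read) once the factor of the tumor was undone. Columns carry N or T and a number that does not match the replicate numbers of the labels. They were assigned to groups by letter and to no single host.

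Identifiers were matched to GENCODE M21 (GRCm38), which named 52083 of 55359 (94.1%). Genes with a mean of at least 1 were tested with limma 3.58.1 (R 4.3.3) with a mean-variance trend on log2(value + 1), so that fold changes of low genes are understated, and p values were adjusted over all genes tested. The recovered reads were tested with edgeR 4.0.16 and DESeq2 1.42.0 as alternatives, with other scalings, pseudocounts, filters and each tumor left out. The steps were checked on simulated counts with the same spread in both groups and no outlying tumor. That check does not show how the calls behave with the larger spread of the D30 tumors. P values measure the spread among tumors of 1 experiment. Values in every tumor were given for called genes, genes whose groups did not overlap, the 3 largest rises and falls, the highest and lowest level per length, and, chosen after their values were seen, Glul, Slc25a1 and Asns. The 3 other pathway genes with the smallest p were named. A count of 0 reads allows up to 3. The genes, lists and motifs were chosen with earlier results of these data known. Promoter sequences came from RefSeq.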

Additional observations from a re-analysis of the deposited data

Results flagged for a closer look

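In 13 of the 70 groups of 5 tumors (35 genes in each of the CTRL and D30 groups), 1 tumor stood apart from the others by Dixon's test, which compares its gap to the nearest tumor with the whole range (critical value 0.71 for 5 tumors). Chance sets apart about 1 in 20 such groups, and the values of different genes in a tumor are not independent. Of the 13, 5 concerned the CTRL tumor N1 and 5 the D30 tumor T4. T4 lay outside the range of the other D30 tumors for 71.4% of the 35 genes. Over all genes whose mean reached 100 normalized counts, that share was 74.6%. N1 lay outside the range of the other CTRL tumors for 62.9% of the 35 genes and 72.8% of all genes at that level. Dixon's test was not run over all genes, so the 13 cannot be read as particular to these genes.

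Among CTRL tumors, N1 was highest for Suclg1 (4167 normalized counts, next 3080), Fh1 (4433, next 2473), Glud1 (11002, next 8847) and Slc25a13 (662, next 386), and lowest for Pck2 (1595, next 2329). N4 was the only CTRL tumor with Pck1 (109.6 normalized counts against 0), and N5 was highest for Slc38a2 (10018, next 8209). Among D30 tumors, T4 was highest for Idh3b (6180, next 4669), Dld (5117, next 3173), Glud1 (14304, next 8473), Mpc1 (768, next 436) and Mpc2 (3577, next 1313). T1 was highest for Dlst (5794, next 4791). Glud1 was thus set apart in both groups, in N1 and in T4. The part of transcript GC content or length, along which both tumors departed from their groups, in these values was not tested.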

How the results depend on the processing

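Of the 35 genes, 1 was called with upper-quartile or TMM scaling, a pseudocount of 0.5 or 5, a mean of at least 10, and edgeR with either set of factors. With library-size scaling and with no filter on low values, 0 were called, where the fits called 864 and 600 of all genes. In the fits without 1 tumor the count was 0 to 3 (0 without any CTRL tumor or without T1, T2 or T7, 3 without T4, 2 without T5), and the count over all genes was 279 to 1573, against 678 with all tumors. DESeq2 called 3 of the 35 and 1858 of all genes. Without T4 and T5, and without N1 and T4, both chosen after the data were seen, 5 and 3 were called. Among the 3 largest rises and falls and the called genes, directions turned for Ogdh without T4 and T5 (0.15 against -0.35 on the log2 scale), for Slc38a2 without T4 and T5 (0.11 against -0.32) and for Pck1 without N4 (1.03 against -0.33, and -0.82 to 1.03 over the fits without 1 tumor). Over all 35, none passing the test, 9 turned with library-size scaling, 3 with upper-quartile and 1 with TMM scaling, 2 to 4 without 1 tumor, 6 without T4 and T5, and 2 in edgeR and in DESeq2 (Got2 and Cs). The cause was not tested. None of the 14 ratios was called under another pseudocount or without any 1 tumor, in designs where several ratios would have to reach the smallest exact p to pass. No paired analysis was possible because the numbers of the columns do not match the replicate numbers of the labels, so that no pairing of tumors can be made. Low counts limited 2 genes, Pck1 and Me3, with at most 120 and 15 reads per tumor.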
